A study of Canis lupus familiaris with 15 samples.

Results

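Changes that hemangiosarcoma and nodular hyperplasia of the dog spleen had in common were sought by comparing 10 splenic masses with 5 normal spleens, the whole of the 15 small RNA libraries. Of the 10 masses, 5 were hemangiosarcoma, a malignant tumor of blood vessel endothelium, and 5 were nodular hyperplasia, a benign overgrowth of splenic tissue. Both types had equal weight in the average. The masses came from client-owned dogs whose spleens were removed because of a mass, and a trimmed piece of the mass was flash frozen. The 5 normal spleens were frozen tissue from an archive, judged normal by histopathology. Each library was 1 spleen, and the labels name no treatment. Since masses and normal spleens were collected separately, mass and source of the tissue cannot be told apart.

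MicroRNAs (miRNAs) are short RNAs cut from hairpin precursors. They lower the output of messenger RNAs that carry a match to their seed, and several are made almost wholly by 1 kind of cell. In spleen, a mixed organ of lymphocytes, blood cells, endothelium and contractile stroma, the level of a miRNA follows both how many cells of its source are present and how much each makes, and in these bulk samples fewer cells of a type and less RNA per cell cannot be told apart.

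Between 3040736 and 7548062 mature counts were available per library, and 231 to 250 miRNAs were detected in each. Levels are given as CPM, counts relative to a library size scaled by TMM, a method that assumes most miRNAs do not change. On this scale the libraries do not add up to a common total, and a very abundant miRNA can exceed the nominal one. Mir-143 alone took 34.4% to 51.5% of mature counts in normal spleen, while hemangiosarcomas had 6.78% to 38.0% and nodular hyperplasias 10.4% to 21.3%. Hemangiosarcoma replicate 3 stood apart in mir-375, a pancreatic islet miRNA that is not among the shared changes, with 3486 CPM against 15.2 CPM or less elsewhere.

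The shared changes held both rises and falls. Mir-34a, a target of p53, rose most, and mir-143, mir-10a, mir-26a, mir-28 and mir-181a fell in both types. A change was called shared when the average of both mass types differed from normal spleen at an adjusted p under 0.05 (edgeR quasi-likelihood test, Benjamini-Hochberg) and each type on its own moved the same way at an unadjusted p under 0.05. Of 250 miRNAs tested, 36 passed the averaged test, which is 14.4%, with 20 higher and 16 lower. Of these, 21 were shared, which is 8.4% of those tested: 9 higher (3.6%) and 12 lower (4.8%). Only 6 miRNAs, 2.4%, passed an adjusted p under 0.05 in each type separately: mir-34a, which was higher, and mir-10a, mir-143, mir-26a, mir-28 and mir-181a, which were lower. Both single comparisons use the same 5 normal spleens, so they are not independent of each other. Where the larger of both p-values was itself adjusted over all 250 miRNAs, 0 passed, with a lowest adjusted p of 0.0541, while 23 had both unadjusted p-values under 0.05 in 1 direction.

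**Figure D1:**
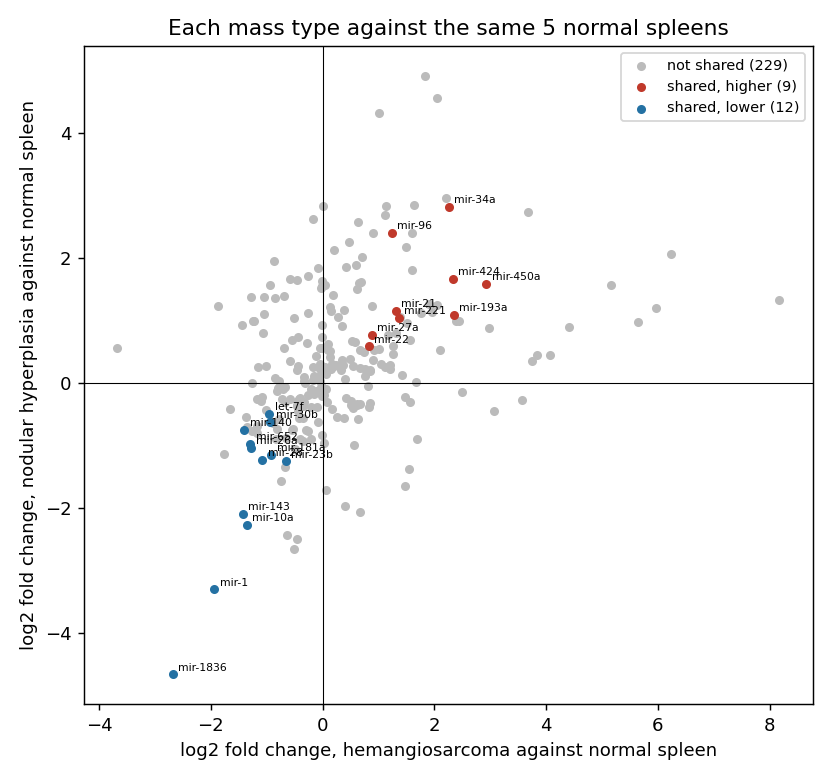
Log2 fold change of hemangiosarcoma (horizontal) and of nodular hyperplasia (vertical) against the same 5 normal spleens for the 250 miRNAs tested. The 9 shared rises (red) lie in the upper right and the 12 shared falls (blue) in the lower left, and the other 229 miRNAs are grey.

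The split between rises and falls depended on the processing. With TMM the 250 miRNAs had a median log2 fold change of 0.16, and with plain library totals it was 0.79, where mir-143 reads count as depth. With library totals 25 miRNAs were shared and higher and 2 were lower, and the averaged test gave 43 higher and 4 lower. With totals that left out mir-143 these were 10 and 5 shared, and the median was 0.35. All 9 shared rises kept their call with library totals, but only mir-143 and mir-10a of the 12 falls did. All 12 falls stayed below 0 on the log2 scale. With TMM kept, the order of rises and falls also turned: a minimum of 10 CPM in 5 libraries gave 12 rises and 9 falls, and all hairpin reads gave 16 and 14. Falls are therefore stated relative to the middle of the miRNAs, with this exception.

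**Figure D2:**
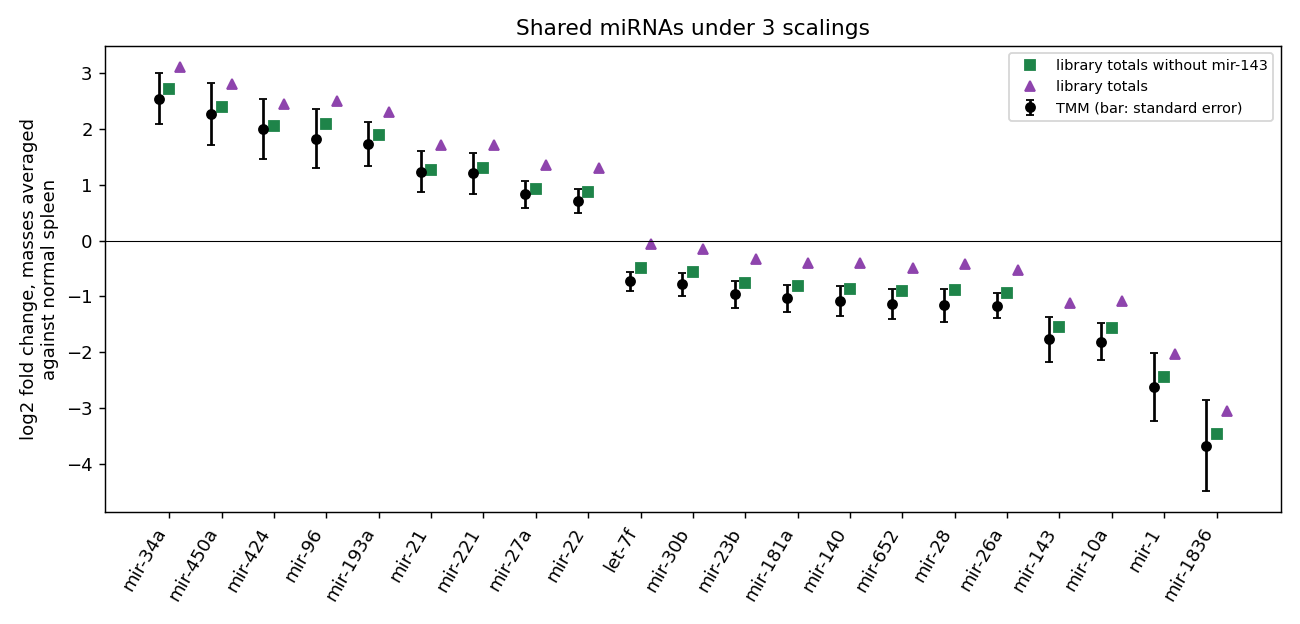
Log2 fold change of the masses, averaged over both types, against normal spleen for the 21 shared miRNAs under TMM (circles, bars are the standard error), library totals without mir-143 (squares) and library totals (triangles). Signs are the same throughout, and the falls from let-7f to mir-26a lie nearest 0 with library totals.

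Among the rises, mir-34a was the clearest. It is transcribed under p53 and lowers several genes of the cell cycle. In normal spleen replicates 1 to 5 it stood at 10.2, 20.3, 23.8, 15.4 and 29.5 CPM. In hemangiosarcoma it was 72.9, 109, 21.7, 155 and 117 CPM, and in nodular hyperplasia 82.9, 138, 186, 217 and 75.1 CPM. All masses but hemangiosarcoma replicate 3 were above every normal spleen, and that library lay within their range. The averaged log2 fold change was 2.53 (SE 0.45, adjusted p = 0.00484), a 5.79-fold rise, with 2.26 in hemangiosarcoma and 2.81 in nodular hyperplasia. The call held in each of the 15 fits that left out 1 library. The other members of the family, mir-34b, mir-34c and mir-449, had averaged log2 fold changes of 1.65, 0.87 and 1.17 and did not pass.

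Mir-424 and mir-450a come from neighbouring hairpins of 1 cluster, together with mir-503, mir-542 and mir-450b. All 906 mature counts of mir-424 lay on the 3' arm of its hairpin, so its levels describe that product only. Mir-450a was 61.0, 108, 90.7, 107 and 123 CPM in normal spleen, 300, 229, 1180, 1212 and 811 CPM in hemangiosarcoma and 232, 40.9, 169, 325 and 698 CPM in nodular hyperplasia. All masses but nodular hyperplasia replicate 2, which was below every normal spleen, were above the normal range. Its averaged log2 fold change was 2.26 (SE 0.56, adjusted p = 0.0146), and 1.86 with limma voom, where the call ended (adjusted p = 0.0541). None of its 29534 mature counts matched the annotated mature sequence exactly, so it could not be tested on exact reads. Mir-424 was low throughout, at 1.79 to 5.86 CPM in normal spleen, 9.16 to 30.2 CPM in hemangiosarcoma and 2.04 to 26.3 CPM in nodular hyperplasia, with a log2 fold change of 1.99 (SE 0.54, adjusted p = 0.0224). Mir-503 and mir-542 passed the averaged test, at 1.71 and 1.69, but not the test in nodular hyperplasia alone (unadjusted p = 0.0744 and 0.0959), and mir-450b, at 0.86, passed neither.

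Mir-193a, reported as a brake on growth signalling in human tumors, was the shared miRNA in which the mass types differed. It was steady in normal spleen, at 17.8, 19.6, 20.5, 19.6 and 23.0 CPM. In hemangiosarcoma it was 104, 28.6, 113, 164 and 102 CPM, and in nodular hyperplasia 49.1, 35.5, 16.7, 40.7 and 72.2 CPM. All masses but nodular hyperplasia replicate 3, which was below them, were above every normal spleen. The log2 fold change was 2.35 in hemangiosarcoma and 1.09 in nodular hyperplasia, and the difference between them was 1.25 (SE 0.42, adjusted p = 0.0491). That call was at the threshold: it ended with RLE size factors (adjusted p = 0.0526), limma voom (0.0864), the replicate block (0.0878), library totals (0.0993), totals without mir-143 (0.0617) and exact reads (0.0548), and without any 1 of hemangiosarcoma replicates 1 and 4, nodular hyperplasia replicates 1, 2 and 4 and normal spleen replicates 1 to 4. Over the 15 fits without 1 library its adjusted p ran from 0.00941 to 0.120 and the difference from 1.02 to 1.53. Of the 250 miRNAs, 46 (18.4%) differed between the mass types. The other 20 shared miRNAs did not pass that test, and their differences ran from 0.12 to 1.99 in size with standard errors of 0.20 to 1.04, so differences of that size could be missed.

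Mir-21, a growth-promoting miRNA that is raised in many human tumors and in inflamed tissue, was the second most abundant miRNA of the series. Its levels in normal spleen were 99124, 118009, 74344, 105441 and 104745 CPM. They were 315348, 82737, 475163, 150592 and 215342 CPM in hemangiosarcoma and 206570, 132343, 193816, 410131 and 173533 CPM in nodular hyperplasia. Hemangiosarcoma replicate 2 was the 1 mass within the normal range. Mir-21 rose by 1.23 on the log2 scale (SE 0.37, adjusted p = 0.0318), a 2.34-fold change, and the mass types differed by 0.15 (SE 0.40, adjusted p = 0.817).

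Mir-221 and mir-27a, which act in endothelium and in other dividing cells, rose less. Mir-221 was 361 to 882 CPM in normal spleen, 708 to 2595 CPM in hemangiosarcoma and 759 to 1762 CPM in nodular hyperplasia, so that 6 of 10 masses passed the normal range (log2 fold change 1.20, SE 0.36, adjusted p = 0.0328). Its neighbour mir-222, which shares its seed, had 1.70 and an adjusted p of 0.0599. Mir-27a was 2384 to 3184 CPM, 3157 to 8895 CPM and 3417 to 5914 CPM in the same order (0.83, SE 0.24, adjusted p = 0.0293). Its neighbours mir-23a and mir-24 gave -0.30 and 0.38 and did not pass.

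Mir-96 and mir-22 complete the rises. Mir-96, of the sensory mir-183 cluster, was uneven among the masses: all 5 nodular hyperplasias (24.8 to 73.0 CPM) but only 2 hemangiosarcomas (6.33 to 52.2 CPM) were above the normal range of 4.10 to 11.4 CPM. Its log2 fold change was 1.82 (SE 0.52, adjusted p = 0.0274). In hemangiosarcoma alone it had 1.24 (unadjusted p = 0.0418, adjusted p = 0.131). Its neighbours mir-182 and mir-183 had 0.77 and 0.74 in the average and did not pass. They had -0.01 and -0.03 in hemangiosarcoma and 1.55 and 1.51 in nodular hyperplasia (adjusted p = 0.0342 and 0.0375). Mir-22 had the smallest rise, 0.71 (SE 0.22, adjusted p = 0.0363). All 5 hemangiosarcomas (10699 to 13939 CPM) and 3 nodular hyperplasias (7254 to 17158 CPM) were above the normal spleens at 5944 to 7637 CPM.

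**Figure D3:**
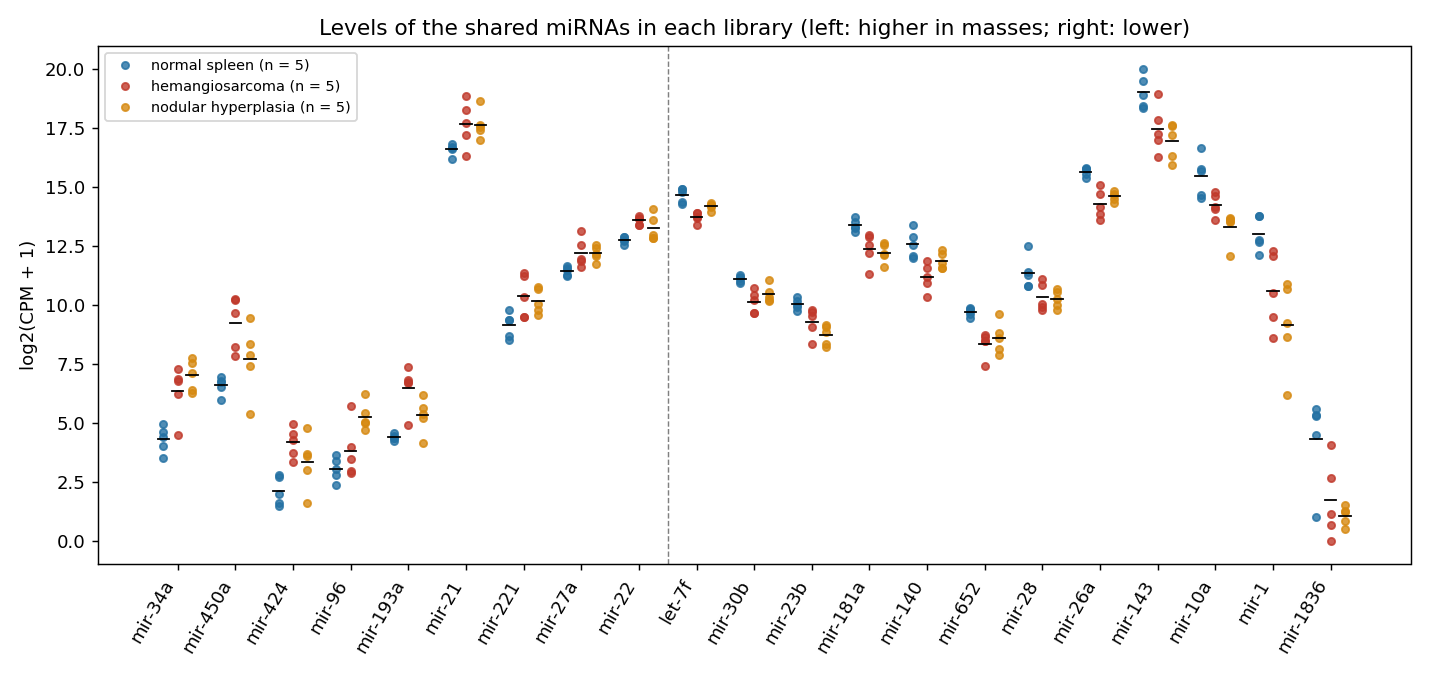
Level of the 21 shared miRNAs in each of the 15 libraries as log2(CPM + 1), with points for libraries and short lines for the group means. Mir-181a and mir-26a are the shared miRNAs in which, on the TMM scale, all 10 masses lie on 1 side of the 5 normal spleens.

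The falls include miRNAs of muscle and stroma. Mir-143, made by smooth muscle and fibroblasts and the most abundant miRNA of the series, was 1042180, 742802, 357007, 496015 and 339304 CPM in normal spleen. It was 500791, 236095, 79364, 157268 and 130428 CPM in hemangiosarcoma and 201946, 63717, 81926, 196317 and 151626 CPM in nodular hyperplasia. Only hemangiosarcoma replicate 1 reached the normal range. The log2 fold change was -1.76 (SE 0.40, adjusted p = 0.0122), a 3.40-fold fall. Mir-145, its neighbour from the same cluster, had -1.16 (adjusted p = 0.0267) but did not pass in hemangiosarcoma alone (unadjusted p = 0.0765). The rest of the list of 6 smooth muscle and fibroblast miRNAs did not pass: mir-152 had -0.68, mir-199 0.04, mir-218 0.15 and mir-214 0.23, so that 3 members were below 0 and 3 above. The list's summed level was 350326 to 1057320 CPM in normal spleen, 85047 to 515144 CPM in hemangiosarcoma and 71078 to 215984 CPM in nodular hyperplasia, nearly all of it mir-143. The part of stromal content in the other changes was not tested.

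Mir-1, a miRNA of heart and skeletal muscle that smooth muscle also makes at a lower level, fell 6.16-fold. It was 13993, 13943, 6520, 6831 and 4496 CPM in normal spleen, 5044, 4310, 387, 717 and 1466 CPM in hemangiosarcoma and 1924, 71.5, 399, 1641 and 603 CPM in nodular hyperplasia. Only hemangiosarcoma replicate 1 overlapped the normal spleens, and the log2 fold change was -2.62 (SE 0.61, adjusted p = 0.0122). Its cluster partners mir-133a and mir-133c had -1.48 and -1.54 and did not pass (adjusted p = 0.0816 and 0.0782). Mir-133a was -0.46 in hemangiosarcoma (unadjusted p = 0.511) and -2.49 in nodular hyperplasia (unadjusted p = 0.0029). Of 7 striated muscle miRNAs tested, mir-1 was the 1 shared fall, beside 4.8% of all miRNAs. The list's median was -0.52 in hemangiosarcoma and -2.43 in nodular hyperplasia, and mir-499 and mir-208b lay above 0 in the average, at 0.66 and 1.06, without passing.

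Mir-10a lies among the HOX genes of the body axis and is expressed in many stromal and blood cells. It was 102331, 56278, 25814, 53154 and 23620 CPM in normal spleen, 28712, 18428, 25129, 17277 and 12576 CPM in hemangiosarcoma and 11607, 4329, 13235, 12984 and 12125 CPM in nodular hyperplasia. All 5 nodular hyperplasias and 3 hemangiosarcomas were below every normal spleen. The log2 fold change was -1.81 (SE 0.33, adjusted p = 0.00484). Mir-196b, another miRNA of the HOX clusters, moved the other way in the average, by 2.65 (adjusted p = 0.0431), and passed in hemangiosarcoma alone. Mir-196a had 3.20 and did not pass (adjusted p = 0.0560). Mir-10b did not share the fall: it had 0.41 in hemangiosarcoma (adjusted p = 0.616) and -1.97 in nodular hyperplasia (adjusted p = 0.0254).

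Mir-26a targets the chromatin regulator EZH2 in human cells and its hairpins lie within the genes CTDSP2 and CTDSPL, which encode phosphatases. It separated the groups fully on the TMM scale. The normal spleens held 56240, 56151, 43037, 57250 and 47642 CPM, the hemangiosarcomas 26594, 34793, 12551, 18132 and 14955 CPM, and the nodular hyperplasias 29175, 20734, 22959, 27118 and 26342 CPM. Its log2 fold change was -1.16 (SE 0.22, adjusted p = 0.00517), and its exact permutation p, two-sided over 3003 choices of 5 libraries, was 0.000333, the smallest this design can give. Mir-26b gave -0.72 (adjusted p = 0.0509), and mir-101, which also targets EZH2, gave -0.94 (adjusted p = 0.0318) and was just outside the shared calls at an unadjusted p of 0.0518 in nodular hyperplasia. With plain library totals the groups overlapped in mir-26a, and its log2 fold change was -0.53 (adjusted p = 0.154).

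Mir-181a and mir-28 are miRNAs of developing and activated lymphocytes. Mir-181a was 13757, 8847, 9992, 10230 and 11735 CPM in normal spleen, 7988, 7547, 2565, 5959 and 4764 CPM in hemangiosarcoma and 4497, 3138, 6396, 4614 and 5970 CPM in nodular hyperplasia. On the TMM scale no mass reached a normal spleen, and the log2 fold change was -1.03 (SE 0.24, adjusted p = 0.0122). With plain library totals some masses did, and the log2 fold change of mir-181a was -0.41 (adjusted p = 0.327). Mir-28 was 5867, 2718, 1806, 2439 and 1793 CPM in normal spleen, 2171, 1845, 955, 891 and 1053 CPM in hemangiosarcoma and 1221, 874, 1022, 1492 and 1638 CPM in nodular hyperplasia. Hemangiosarcoma replicates 1 and 2 overlapped the normal spleens, and the log2 fold change was -1.15 (SE 0.29, adjusted p = 0.0156). Mir-142, mir-150 and mir-155, also lymphoid, moved in opposite directions in the mass types and did not pass the average. Their log2 fold changes were -1.22, -1.87 and -1.24 in hemangiosarcoma (adjusted p = 0.0340, 0.00590 and 0.0209) and 0.99, 1.22 and 1.00 in nodular hyperplasia (adjusted p = 0.0959, 0.0614 and 0.0701).

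Let-7f and mir-30b are members of the let-7 and mir-30 families, which are linked to differentiation. Let-7f was 20113 to 31421 CPM in normal spleen and 10859 to 20650 CPM in the masses (-0.73, SE 0.17, adjusted p = 0.0122), with nodular hyperplasia replicate 4 the 1 mass inside the normal range. Mir-30b was 1968 to 2507 CPM against 803 to 2138 CPM (-0.78, SE 0.21, adjusted p = 0.0201). Of the 5 mir-30 miRNAs tested, mir-30a and mir-30e passed the average but not both types, and mir-30c and mir-30d did not pass. Related let-7 and mir-30 members may share reads.

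Mir-23b, mir-140 and mir-652 had log2 fold changes of -0.96, -1.08 and -1.13 (SE 0.24, 0.26 and 0.27, adjusted p = 0.0154, 0.0146 and 0.0122). Mir-140, a miRNA of cartilage carried in the WWP2 gene, was 4032 to 10686 CPM in normal spleen, 1296 to 3695 CPM in hemangiosarcoma and 3019 to 5120 CPM in nodular hyperplasia. Mir-652, carried in TMEM164, was 702 to 939 CPM in normal spleen, and all masses but nodular hyperplasia replicate 3 were below that, at 169 to 454 CPM. Mir-23b was 848 to 1278 CPM in normal spleen, and hemangiosarcoma replicate 1, at 887 CPM, was the only mass inside that range. Of its mature reads 2.29% matched the annotated sequence exactly, and with these alone its change was -0.37 (adjusted p = 0.356). The shared call held in 5 of 12 alternatives for mir-23b and in 7 of 12 for mir-140, where those that left out single libraries are not counted.

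Mir-1836 gave the largest change in size, on few counts. It was 0.990, 47.1, 21.6, 38.8 and 37.7 CPM in normal spleen, 0, 0.591, 5.36, 15.8 and 1.22 CPM in hemangiosarcoma and 1.42, 1.31, 0.403, 1.86 and 0.785 CPM in nodular hyperplasia. Normal spleen replicate 1 lay among the masses. The log2 fold change was -3.67 (SE 0.81, adjusted p = 0.0122), over 855 mature counts in all libraries, of which 10 matched the annotated mature sequence exactly. With only exact reads the log2 fold change was 1.56 (adjusted p = 0.395), so that the direction turned.

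Hairpin reads outside the annotated mature sequence were counted separately by the authors and were tested in the same way in 237 miRNAs. For each of the 21 shared miRNAs, mature counts lay on 1 arm of the hairpin. Reads elsewhere can therefore include the product of the opposite arm. Normal spleens had 4.83% to 8.57% of their hairpin reads outside the mature sequence, hemangiosarcomas 7.86% to 22.8% and nodular hyperplasias 5.37% to 10.4%. Mir-126, not a shared miRNA, held 3556990 of these reads over all libraries. It had 24495 to 33659 CPM there in normal spleen, 27341 to 181681 CPM in hemangiosarcoma and 7746 to 22594 CPM in nodular hyperplasia. The part of the shift in percentages in the changes was not tested. Of the 21 shared miRNAs, 19 had the same sign in these reads and 7 were shared there too: mir-34a, mir-450a, mir-424 and mir-193a among the rises and mir-143, mir-10a and let-7f among the falls. In all, 19 of the 237 (8.02%) were shared in these reads, and the share with equal signs over all of them was not counted. Among the 19 were also mir-450b, mir-503 and mir-542 of the mir-424 cluster, at 2.85, 2.52 and 1.91. For mir-450b this rests on 663 reads, beside 35569 mature counts. The reads come from the same hairpins and libraries and took their scaling from the mature counts. They are therefore not an independent sample. In them mir-28 and mir-140 showed no fall, at 0.00 (SE 0.24) and 0.08 (SE 0.17). For mir-424 and mir-193a most hairpin reads, 82.8% and 71.6%, lay outside the annotated mature sequence, and their changes there were 1.90 (SE 0.42, adjusted p = 0.00815) and 1.52 (SE 0.37, adjusted p = 0.0143).

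**Figure D4:**
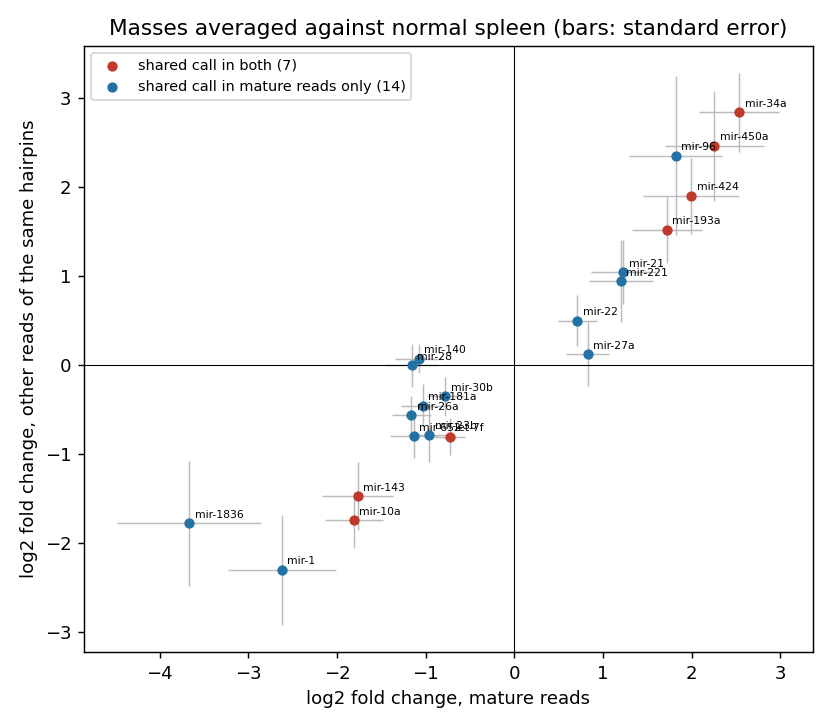
Log2 fold change of the masses against normal spleen from mature reads (horizontal) and from other reads of the same hairpins (vertical) for the 21 shared miRNAs, with standard errors as bars. The 7 miRNAs shared in both kinds of read are red, and mir-28 and mir-140 lie at 0 on the vertical axis.

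Across the lists of cell types, families and clusters, no list held more than 2 shared changes. The mir-424 cluster had 2 shared rises of 5 tested and the endothelial list 2 of 7, beside 3.6% of all miRNAs, and the lymphoid list had 2 shared falls of 7, beside 4.8%. The lists were chosen with earlier results of these data known, and members of a cluster are neighbouring hairpins. These shares therefore do not test the lists. Median log2 fold changes in hemangiosarcoma and nodular hyperplasia were 2.39 and 0.99 for the mir-424 cluster, 0.88 and -0.06 for the endothelial list and -1.15 and 0.25 for the lymphoid list, beside 0.03 and 0.23 over all miRNAs. Mir-21 was the 1 shared rise of the 7 inflammation miRNAs, and mir-132, mir-212 and mir-146b passed the average but only 1 mass type each. The list went both ways: mir-146a had -0.71, mir-147 -0.65 and mir-223 0.32, and none of them passed the average. In hemangiosarcoma alone mir-146a fell by -1.17 (adjusted p = 0.0118). No member was shared among the 14 mir-17 cluster miRNAs, the 29 of the Dlk1-Dio3 cluster, or the epithelial, pancreatic, liver and neural lists. The erythroid miRNAs also gave no shared change: mir-451, the fourth most abundant miRNA, had -1.03 (adjusted p = 0.0579).

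**Figure D5:**
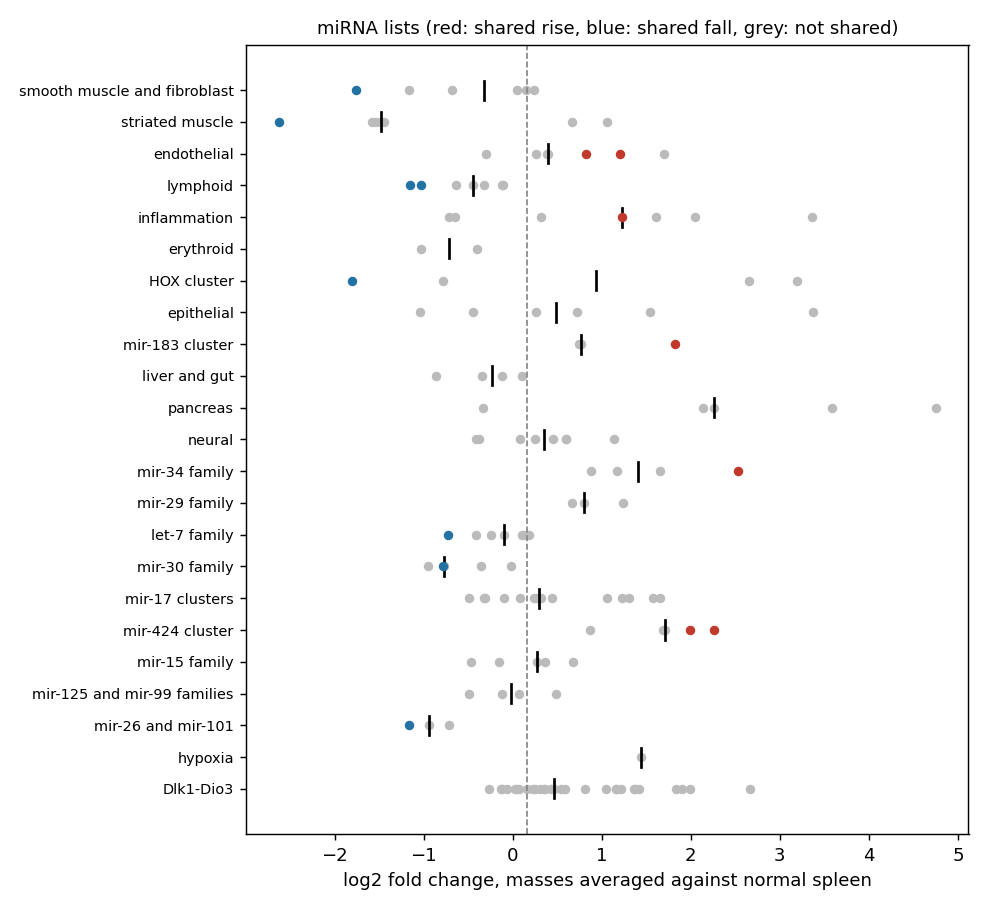
Log2 fold change of the masses against normal spleen for members of each list (points, red for shared rises and blue for shared falls), with the list median (short line) and the median of all 250 miRNAs (dashed, 0.16). Shared miRNAs are 1 or 2 members of a list.

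Between levels alone, on the TMM scale, all 10 masses lay on 1 side of all 5 normal spleens for 4 of the 250 miRNAs (1.6%): mir-365, which was above, and mir-181a, mir-26a and mir-26b, which were below. Mir-365 and mir-26b were not shared, since nodular hyperplasia alone did not pass (unadjusted p = 0.161 and 0.144). By the exact permutation test adjusted over all 250 miRNAs, 5 (2.0%) passed, all of them shared: mir-34a, let-7f, mir-181a, mir-652 and mir-26a.

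Single libraries mattered to the shared calls. Mir-10a, mir-26a, mir-652, mir-181a and mir-34a kept the call in all 15 fits that each left out 1 library. Leaving out normal spleen replicate 1 gave 2 shared rises and 7 falls, replicate 2 gave 3 and 10, replicate 3 gave 4 and 13, and replicate 4 gave 3 and 9. Leaving out nodular hyperplasia replicate 3 gave 14 rises and 10 falls. Without normal spleen replicate 1 the calls of mir-143, mir-28, mir-140, mir-23b, let-7f, mir-450a, mir-424, mir-96, mir-21, mir-221, mir-27a and mir-22 ended. Normal spleen replicate 2 ended mir-424, mir-96, mir-21, mir-221, mir-27a, mir-22, mir-23b and mir-140 in the same way, replicate 3 mir-96, mir-21, mir-221, mir-27a, mir-22 and mir-30b, replicate 4 these same miRNAs with mir-424, let-7f and mir-23b, and replicate 5 mir-30b and mir-23b. Among the masses, leaving out hemangiosarcoma replicate 3, 4 or 5 ended mir-23b, replicate 3 or 5 mir-1, and replicate 5 mir-96 and mir-1836. For nodular hyperplasia, replicate 1 ended mir-30b and mir-140, replicate 2 mir-221 and mir-140, replicate 3 mir-22, let-7f, mir-23b and mir-140, replicate 4 mir-21, mir-221, mir-22 and mir-30b, and replicate 5 mir-450a, mir-424 and mir-193a. Over these 15 fits the log2 fold change ran from -2.04 to -1.46 for mir-143, from -1.29 to -0.73 for mir-28, from 1.06 to 1.34 for mir-21 and from -4.36 to -3.43 for mir-1836, and no shared miRNA changed sign.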

How the data were processed

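Small RNA from 15 frozen canine spleens was sequenced, 1 library per spleen. The authors checked reads with FastQC, trimmed adapters, removed short reads and counted them in CLCbio against canine hairpins of miRBase; the submitters' processing notes name canFam3. For FastQC and CLCbio the version is not given in the sources used here. Deposited tables hold raw counts for each hairpin, which the authors had not normalized. For each miRNA, 5' and 3' mature counts were summed over hairpin copies of 1 name, which gave 277 miRNAs from 313 hairpins.

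The 250 miRNAs with at least 10 summed counts were fitted with edgeR 4.0.16 (R 4.3.3; quasi-likelihood test, TMM, 1 mean per group, Benjamini-Hochberg at 0.05). The step was tested on simulated data. There, miRNAs drawn at random changed by equal folds in both mass types, as many up as down. Unequal changes and the weight of mir-143 in the scaling were not tested on their own. Exact permutation tests used log2(CPM + 1). Alternatives were other scalings and filters, DESeq2 1.42.0, limma voom 3.58.1, all hairpin reads, a replicate block and leaving out each library. Neighbouring and host genes, by name only, came from a RefSeq table of assembly UU_Cfam_GSD_1.0, in which 20 of 21 shared miRNAs matched. The text names every shared miRNA, the 5 most abundant, and list members as examples. The members and lists were chosen with earlier results of these data known.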

Additional observations from a re-analysis of the deposited data

Results flagged for a closer look

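In groups of 5 libraries, 4 of 69 combinations of named miRNA and group held a library far from the others, where chance flags about 1 in 20. Mir-10a was 4329 CPM in nodular hyperplasia replicate 2, the lowest of its group. Mir-1836 was 0.990 CPM in normal spleen replicate 1, far under the other normal spleens. Mir-193a was 28.6 CPM in hemangiosarcoma replicate 2, and mir-652 was 169 CPM in hemangiosarcoma replicate 3, each the lowest of its group.

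The effect of mir-193a differed between the mass types by 1.25 on the log2 scale. Reads outside the annotated mature sequence, which the main comparison does not use, gave 19 shared miRNAs of 237. Of those not shared in mature reads, 3 were above the normal spleens in all 10 masses: mir-335 with an averaged log2 fold change of 3.11, mir-212 with 3.05 and mir-671 with 0.87. The mass types differed in mir-335, with 4.49 in hemangiosarcoma and 1.73 in nodular hyperplasia (edgeR adjusted p = 0.0190). They also differed in mir-212, with 4.69 and 1.40 (adjusted p = 0.00183). In nodular hyperplasia alone neither passed after adjustment (adjusted p = 0.159 and 0.150). Below the normal spleens in all 10 masses were mir-505 with -1.20, mir-30a with -1.09 and mir-599, which had no mature counts, with -2.25. The mature reads of mir-505 had the opposite sign, at 0.78 (adjusted p = 0.138), on 351 mature counts against 19321 elsewhere on its hairpin. Margins were narrow for mir-212 (1.21 against 1.14 CPM), mir-30a (1894 against 1899 CPM) and mir-599 (0.443 against 0.455 CPM). These miRNAs were picked from the 19 already called shared, and the share of such miRNAs among all 237 was not counted. The separation is therefore no further test of them.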

How the results depend on the processing

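With DESeq2, 34 miRNAs were higher and 29 lower in the average, 14 and 16 shared, and 6 and 10 passed in both types after adjustment. With limma voom, 11 were higher in the average, 4 were shared rises and 8 passed as falls in both types. With all hairpin reads, 32 were higher in the average, 16 were shared rises and 6 passed in both types. Library totals gave 43 averaged rises and 4 falls, 25 and 2 shared, and 12 and 0 in both types; leaving out mir-143 from the totals gave 7 averaged falls, 5 shared falls, and 2 rises and 1 fall in both types. Upper quartile factors gave 1 fall in both types, a minimum of 10 CPM in 5 libraries 6 rises in both types, and 1 mean for the 10 masses 11 averaged rises. A log2 fold change of at least 1 in both types left 6 shared falls, and adjusting the larger p left 0 shared rises and 0 falls. Exact mature reads and uniquely placed mature reads were alternatives chosen after seeing the data. They gave 4 rises and 2 falls in both types, respectively. The number of shared miRNAs that differed between mass types was 1, against 2 with library totals, DESeq2 and uniquely placed reads, 3 with all hairpin reads and 0 with RLE size factors and limma voom. Under leave-one-out, averaged rises were 4 to 29 and falls 8 to 23, shared rises 2 to 14 and falls 7 to 15, rises in both types 1 to 5 and falls 0 to 6, and miRNAs that differed between mass types 0 to 2. The cause of these shifts was not tested.

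With a replicate block, 9 miRNAs were higher in the average and 7 and 13 were shared. Replicate numbers name different dogs: deviations of same-numbered libraries correlated from -0.33 to 0.32, so they were not taken as paired.

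DESeq2, RLE size factors and no filter kept all 21 shared calls, the replicate block 17, limma voom 16, uniquely placed reads 16 and exact reads 15. Mir-1, mir-181a and mir-26a, each with 2 hairpins, could not be tested on uniquely placed reads, nor mir-450a on exact reads. Those calls are counted as lost without a test. Of the named miRNAs, mir-148a, which was not shared, turned to 0.21 with library totals, and mir-1836 turned to 1.56 with exact reads. Depth limits mir-1836, mir-424 and mir-96, which had 855, 906 and 1897 mature counts in all libraries.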
